A study of Mus musculus with 94 samples.

Results

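The complement genes described here are 29 genes of the 49080 in the table, chosen by name as components, receptors and regulators of complement. They were taken in 5 roles: the 3 chains of macrophage C1q, 10 soluble components of the classical, lectin and alternative pathways, 3 terminal components, 6 receptors and 7 regulators. Every symbol was found in the table. The 6 Gy group (25 tumors) was irradiated once, with 6 Gy of x-rays to the leg that bore the tumor. The INDO group (25 tumors) received indomethacin, an inhibitor of the cyclooxygenases that make prostaglandins, at 30 mg/L in the drinking water. The 6 Gy + INDO group (24 tumors) received both, and the control group (20 tumors) neither. All tumors grew in the right hind limb of female BALB/c mice implanted at 8 weeks of age with 4T1 cells, a single mouse mammary carcinoma line, and were taken 1, 3, 7, 15 or 23 days after IR. Treated groups held 5 tumors a day, except 4 for 6 Gy + INDO on day 3, and the control group held 4, 5, 5, 3 and 3 tumors on those days. Whole tumors were sequenced, so that fewer cells of a type and less RNA per cell cannot be told apart. The labels do not say more of the replicates than a number, and p-values measure the spread between these tumors.

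Complement is a cascade of plasma proteins that tags cells and debris for uptake, draws in leukocytes and can pierce membranes. C1q, a product of macrophages, binds antibody or dying cells and starts the classical pathway through the protease C1r, which activates C1s, which in turn cuts C4 and C2. Lectins start a related pathway through the MASP proteases, factor B and properdin drive the alternative loop, and all routes meet at C3 before the terminal components C5 to C9. The fragments C3a and C5a act on receptors of myeloid cells, while regulators such as C1 inhibitor, factor I, CD46, CD55 and CD59 hold the cascade back. Although the liver makes most plasma complement, macrophages, fibroblasts and tumor cells also make components inside tumors.

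RefSeq promoters, from 250 bases before to 50 bases after the start of each gene, were found for 20 of the 29 genes on build GRCm38.p6. Those without an entry were not analyzed here. They were searched on both strands for the PU.1 core GAGGAA, for the interferon-stimulated response element GAAANNGAAA and for the C/EBP motif TTNNGCAA, none of which is contained in another. PU.1 is a transcription factor of myeloid cells, and C/EBP factors act in inflammatory gene expression. The PU.1 core was present in 28.3% of all 27025 promoters of the same length and in 8 of the 20 here, which were C1qb, C1qc, C1ra, Cfp, Fcna, Vsig4, Itgam and Cd59a. The C/EBP motif was present in 10.8% of all promoters and in 4 of these, C1ra, C1s1, C3 and C5ar2. The interferon element was present in 3.49% of all promoters and in 2 of these, Cd46 and Cd59a. A match is a run of letters and not a measured site. The promoters of 2 C1q chains, whose levels moved together over the tumors, and of C3, which was not called with 6 Gy + INDO on day 7 when they fell, are shown in the direction of the gene with the matched letters in capitals. All 3 lie on the minus strand, C1qb at chr4:136886151-136886450, C1qc at chr4:136892865-136893164 and C3 at chr17:57228087-57228386. In C1qb the capitals mark the PU.1 core, in C1qc its reverse complement and in C3 the reverse complement of the C/EBP motif.
C1qb: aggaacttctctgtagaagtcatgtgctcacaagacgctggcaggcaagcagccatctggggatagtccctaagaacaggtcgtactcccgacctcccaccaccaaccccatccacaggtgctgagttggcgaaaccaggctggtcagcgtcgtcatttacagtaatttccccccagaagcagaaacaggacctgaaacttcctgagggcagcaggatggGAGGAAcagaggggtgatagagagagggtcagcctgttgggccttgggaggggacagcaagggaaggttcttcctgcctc
C1qc: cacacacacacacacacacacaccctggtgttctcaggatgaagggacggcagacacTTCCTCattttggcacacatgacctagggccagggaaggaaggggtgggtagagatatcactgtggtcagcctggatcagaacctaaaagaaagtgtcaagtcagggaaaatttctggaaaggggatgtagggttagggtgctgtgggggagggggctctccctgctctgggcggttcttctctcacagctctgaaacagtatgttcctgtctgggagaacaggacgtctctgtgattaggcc
C3: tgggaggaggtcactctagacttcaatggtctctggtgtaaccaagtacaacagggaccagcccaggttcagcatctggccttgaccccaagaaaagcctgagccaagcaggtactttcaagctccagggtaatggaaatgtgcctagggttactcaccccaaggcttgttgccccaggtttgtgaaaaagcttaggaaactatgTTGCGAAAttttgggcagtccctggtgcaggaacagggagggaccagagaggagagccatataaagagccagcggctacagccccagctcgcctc

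The libraries held 21 to 109 M counts, with medians of 66.6 M for 6 Gy, 41.0 M for INDO, 37.5 M for 6 Gy + INDO and 73.4 M for control. Structural RNAs took medians of 12.1%, 14% and 15.3% of the counts in the 6 Gy, INDO and 6 Gy + INDO tumors and 8.37% in control. In 11 tumors the olfactory and vomeronasal receptor genes, which belong to the nose, summed to 326 to 1593 CPM (counts scaled to a common library size), against 40.7 to 145 CPM in the other 83. These were 3 tumors of 6 Gy + INDO on day 3, 3 on day 7 and 2 on day 23, 1 INDO tumor each on days 1 and 15 and 1 control on day 15. Counts with 6 Gy + INDO on days 3 and 7 and part of the single results are given with and without them. Not every call lost without them is named. Markers of tumor epithelium (9 genes, summed 1936 to 5503 CPM), macrophages (18 genes), fibroblasts (14) and endothelium (10) were above 0 in every tumor. Hepatocyte markers summed to at most 4.82 CPM in any tumor. Replicate 3 of INDO on day 3 stood apart in lymphocyte markers. Its B cell markers (7 genes) summed to 712 CPM, against at most 9.59 CPM in any other tumor. Its T cell markers (10 genes) summed to 336 CPM, against at most 154 CPM in any other.

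The 29 genes ranged from some of the more abundant messages to a few reads per tumor. Levels below are CPM with TMM library sizes, and only comparisons between genes are made per kb of exon. Per kb, C1qa was the most abundant member (median over the 94 tumors 144 CPM per kb), followed by clusterin (Clu, 123 CPM per kb), C1qb (79.4), C3 (61.1) and C1qc (53.1). The integrin chains Itgb2 and Itgam, which form complement receptor 3, had medians of 24.5 and 17.2 CPM per kb, and factor B (Cfb) 23 CPM per kb. The terminal component C7 (0.0282 CPM per kb) and factor I (Cfi, 0.0240 CPM per kb) were the lowest, and both were at 0 in some tumors, 11 for C7 and 10 for Cfi. Vsig4, a macrophage receptor for C3b, was at 0 in 9 tumors.

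Treated tumors had lower levels of many complement genes on days 1 and 7. On day 7, 19 of the 28 members tested fell with 6 Gy and 1 rose (adjusted p below 0.05 over all genes tested), where 16% of all genes were called, 10.3% lower and 5.69% higher. The INDO tumors had 8 lower members and none higher, where 24.3% of all genes were called (11.7% lower and 12.7% higher). The tumors with both treatments had 17 lower and 3 higher, where 46% of all genes were called (21.2% lower and 24.8% higher). For the members, the log2 fold change had a median of -0.92 in 6 Gy, -0.37 in INDO and -0.81 in 6 Gy + INDO tumors, while that of all genes tested was near 0 (0.02, 0.02 and 0.03). The decreases with 6 Gy on day 7 took in all 3 C1q chains, 7 of 10 soluble components, 2 of 3 terminal components, 3 of 5 receptors and 4 of 7 regulators. The 3 treatments were compared with the same control tumors. On day 1, 11 of 27 members fell and 1 rose with 6 Gy (15.6% of all genes called, 9.43% lower and 6.15% higher). For INDO 11 fell (14.7% of all genes, 8.89% lower and 5.81% higher), and for 6 Gy + INDO 10 fell and 1 rose (24.1%, 13.3% lower and 10.7% higher). Day 3 had fewer calls, with 2 lower of 28 for 6 Gy (7.72% of all genes, 4.1% lower and 3.62% higher). It had 3 lower for INDO (6.33%, 3.95% lower and 2.38% higher), and 3 lower and 1 higher for 6 Gy + INDO (19.5%, 9.43% lower and 10.1% higher). Leaving out 1 tumor moved the 6 Gy count on day 3 to between 1 and 5, and it was 1 without replicate 2 or 3 of the control, or 2, 3 or 5 of 6 Gy, 4 without control replicate 5 and 5 without 6 Gy replicate 1. For 6 Gy and 6 Gy + INDO on day 3, the share of members called was no larger than that of all genes. RLE factors gave 1 higher and 2 lower with 6 Gy on day 3. For 6 Gy + INDO on day 3, housekeeping scaling, which moved all genes up by 0.41, gave 2 higher and 2 lower. Leaving out the 3 receptor-rich tumors left 1 tumor with 6 Gy + INDO on day 3, assumed in the fit to vary like the other groups, and no member was called.

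No complement gene was called by edgeR on day 15 or 23 with any treatment. At an unadjusted p under 0.05 there were 2, 9 and 7 genes for 6 Gy, INDO and 6 Gy + INDO on day 15, of 26 tested, and 8, 1 and 6 on day 23, of 27. Of all genes 6.75%, 9.68% and 20.4% were under that limit on day 15 and 14.2%, 13.3% and 25.6% on day 23, so that the counts for INDO and 6 Gy + INDO on day 23 were below the share of all genes. At an unadjusted p under 0.05 with a change of at least 2-fold, there were 1, 2 and 4 genes on day 15, and 4, 1 and 5 on day 23, where 1.71%, 2.47% and 3.58% of all genes were past it on day 15 and 5.72%, 5.68% and 10.4% on day 23. DESeq2 gave 3 genes for INDO and 2 for 6 Gy + INDO on day 15 and 2 for 6 Gy + INDO on day 23. The share of all genes that DESeq2 called is not given here, so these counts cannot be set against it. The shares that follow are those of edgeR. Across all genes 0%, 0% and 1.33% (0.552% lower and 0.778% higher) were called on day 15 for 6 Gy, INDO and 6 Gy + INDO, and 0%, 0% and 0.00473% on day 23, days with 3 control tumors.

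**Figure D1:**
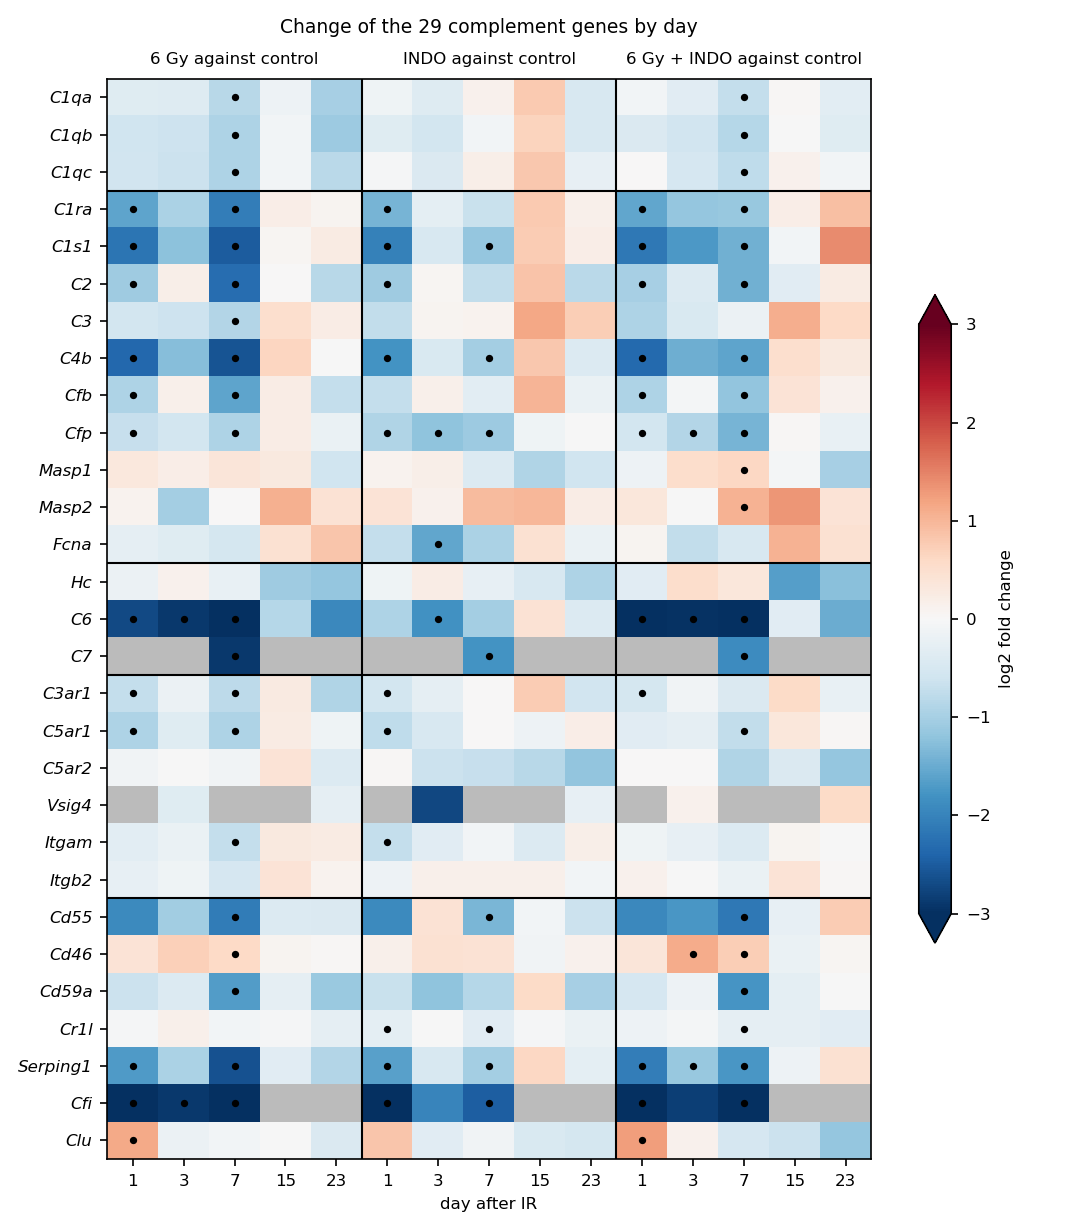
Log2 fold change of each complement gene (rows, by role) against control on each day (columns, in blocks of 6 Gy, INDO and 6 Gy + INDO), with a dot where the adjusted p was below 0.05, grey where the gene was not tested and colors clipped at 3 in both directions. The dots are on days 1, 3 and 7, and nearly all mark lower levels.

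The day 7 counts depended on the scaling in INDO-treated tumors. Scaling by 14 housekeeping genes in place of TMM moved the median of all genes up by 0.25, 0.25 and 0.49 on the log2 scale for 6 Gy, INDO and 6 Gy + INDO on day 7. With that scaling 6 Gy + INDO had 3 higher and 9 lower members on day 7, and INDO 1 higher and 2 lower, where TMM gave 3 higher and 17 lower, and 0 higher and 8 lower. Without the 3 receptor-rich tumors, 6 Gy + INDO had 1 higher and 11 lower. Of the lower calls lost then, only those of the C1q chains are named below. The INDO count on day 7 was 3 to 5 without control replicate 2, 3 or 5 or INDO replicate 1, 2, 3 or 5. Shares of all genes called under these alternative settings are not given here.

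The 3 chains of C1q (C1qa, C1qb and C1qc), which assemble into the recognition molecule of the classical pathway, fell on day 7 in irradiated tumors with or without INDO, and were not called on any other day. The genes lie side by side on chromosome 4 (build mm10), C1qa at 136895917 to 136898803, C1qc at 136889804 to 136893065 and C1qb at 136880129 to 136886187, all on the minus strand. C1qa had 227, 137, 159, 150 and 87.4 CPM in 6 Gy tumors on day 7, 213, 192, 302, 405 and 290 CPM in INDO tumors and 159, 159, 149, 180 and 123 CPM in 6 Gy + INDO tumors, against 269, 259, 242, 276 and 302 CPM in control tumors. Every irradiated tumor, with or without INDO, was below every control tumor, and the INDO tumors spread to both sides of the control. On day 7 all treated tumors were below all controls for 5.5% of genes with at least 10 counts with 6 Gy. With INDO and 6 Gy + INDO this share was 6.76% and 7.62%. C1qa fell by 0.83 on the log2 scale with 6 Gy (SE 0.20, adjusted p = 0.00775), and by 0.72 with 6 Gy + INDO (SE 0.20, adjusted p = 0.00737), while its change with INDO was 0.12 (adjusted p = 0.684).

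C1qb had 130, 73.1, 99.0, 92.3 and 46.9 CPM with 6 Gy on day 7, 130, 109, 155, 202 and 167 CPM with INDO and 77.0, 87.7, 91.8, 110 and 70.2 CPM with 6 Gy + INDO, against 152, 172, 149, 170 and 193 CPM in control. Here, too, no irradiated tumor reached the lowest control. Changes on the log2 scale were -0.92 (SE 0.20, adjusted p = 0.00374), -0.07 (adjusted p = 0.817) and -0.86 (SE 0.20, adjusted p = 0.00275). C1qc, with 126, 79.1, 107, 97.6 and 50.5 CPM with 6 Gy, 136, 140, 216, 274 and 188 CPM with INDO and 103, 102, 82.0, 122 and 77.5 CPM with 6 Gy + INDO, had 158, 182, 162, 156 and 221 CPM in control. It was the third chain in which the irradiated and control tumors were apart, and its log2 fold changes were -0.93 (SE 0.21, adjusted p = 0.00514) with 6 Gy, 0.18 (adjusted p = 0.547) with INDO and -0.77 (SE 0.21, adjusted p = 0.00722) with 6 Gy + INDO.

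The 6 Gy calls of the C1q chains on day 7 were kept under housekeeping scaling and when any tumor was left out. The 6 Gy + INDO calls were not kept under housekeeping scaling, with log2 fold changes of -0.24 for C1qa (adjusted p = 0.225), -0.36 for C1qb (0.0892) and -0.29 for C1qc (0.167). They were also lost without the receptor-rich tumors, which left 2 of the 5, at -0.61 (adjusted p = 0.135), -0.78 (0.0689) and -0.58 (0.160).

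**Figure D2:**
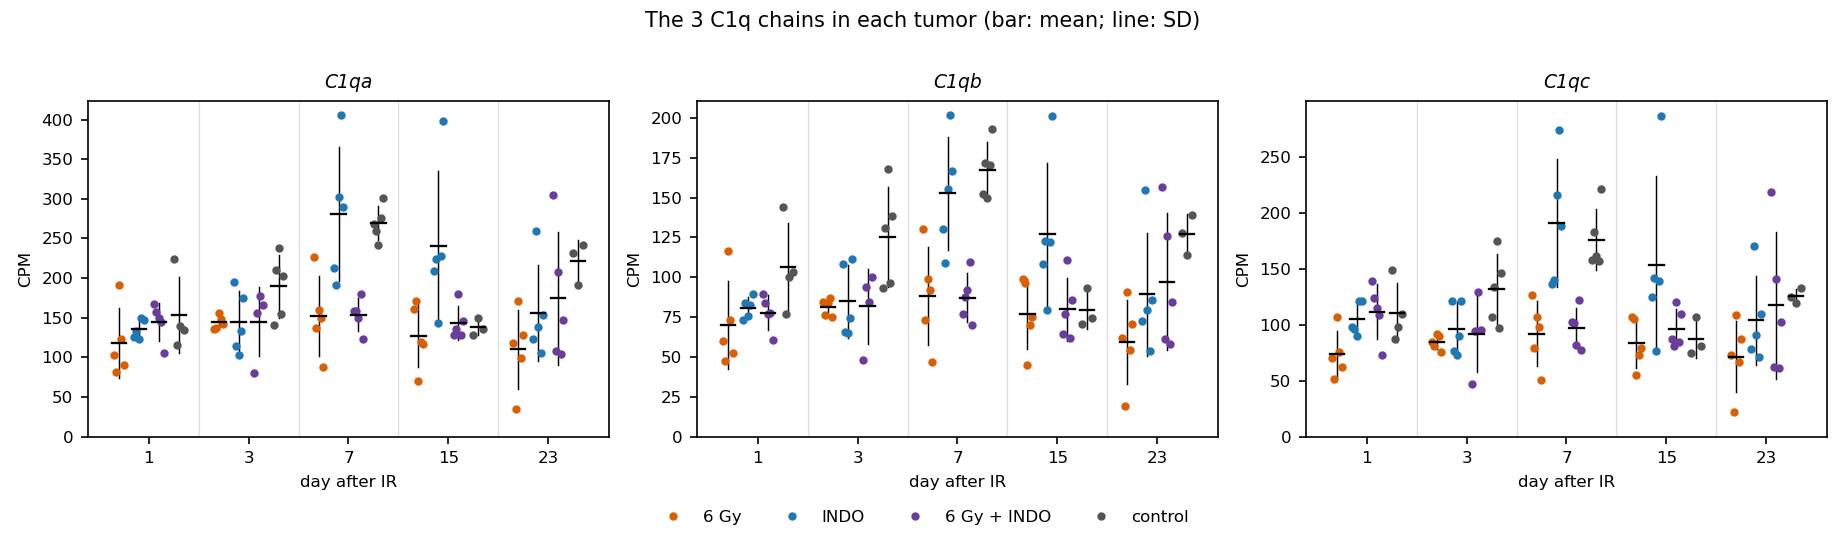
CPM of C1qa, C1qb and C1qc in each of the 94 tumors (points) by treatment (colors) and day after IR, with the mean of each group as a bar. On day 7 the irradiated tumors lie below the control tumors for each chain, C1qa reaching at most 227 CPM with 6 Gy against at least 242 CPM in control.

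The chains moved as a unit. C1qa took 38.8 to 48.6% of the summed C1q CPM over the 94 tumors (median 44.9%), C1qb 21.6 to 29.7% (26.1%) and C1qc 25.4 to 35.0% (29.2%). Across all 94 tumors, after subtracting the mean of each treatment and day, the log2 CPM of C1qa and C1qb had Pearson's r = 0.97 and Spearman's rho = 0.95, C1qa and C1qc 0.97 and 0.95, and C1qb and C1qc 0.95 and 0.93. These are 3 of 6 pairs of partner genes examined, and for each the permutation p was 1e-05, the smallest that 100000 permutations can give, and the adjusted p 1.2e-05. Without the 2 tumors farthest from the median, r stayed between 0.94 and 0.97 for these 3 pairs, and within single days r was between 0.91 and 0.99.

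Markers of macrophages fell in the same groups. On day 7, 14 of 18 macrophage and monocyte markers were lower after 6 Gy, 3 of 18 after INDO and 13 of 18 after 6 Gy + INDO, at median log2 fold changes of -1.08, -0.51 and -1.02. Their summed level was 954 to 1954 CPM in 6 Gy tumors, 1362 to 3269 CPM in INDO tumors and 1069 to 1474 CPM in 6 Gy + INDO tumors, against 1871 to 4017 CPM in control tumors. The summed C1q level was a median of 24.7%, 30.7% and 25.3% of that marker sum in the 6 Gy, INDO and 6 Gy + INDO tumors, and 19.0% in control tumors. On day 1, when 13, 14 and 14 of the markers were lower and their sum was 997 to 1863, 982 to 1216 and 1082 to 1352 CPM with 6 Gy, INDO and 6 Gy + INDO, against 2738 to 3500 CPM in control, no C1q chain was called, and C1q was a median of 20.7%, 29.4% and 27.9% of the marker sum, against 11% in control. The part of these markers in the C1q result was not tested.

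On days 15 and 23 no change of a C1q chain passed the test. C1qa averaged 128 ± 40.1 CPM with 6 Gy, 240 ± 94.7 CPM with INDO and 144 ± 21.6 CPM with 6 Gy + INDO on day 15 (SD, n = 5 each), against 138 ± 10.4 CPM in control (SD, n = 3). On day 23 it averaged 110 ± 49.6, 156 ± 60.4 and 174 ± 84.1 CPM in the 6 Gy, INDO and 6 Gy + INDO groups, against 222 ± 26.6 CPM in control. All 5 irradiated tumors without INDO were below the 3 controls on day 23 for each chain. This held for 4.67% of genes with at least 10 counts that day, and the 3 chains moved together. Their log2 fold changes were -1.0 for C1qa (adjusted p = 0.310), -1.08 for C1qb (adjusted p = 0.302) and -0.80 for C1qc (adjusted p = 0.395).

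Among the soluble components, the largest decreases with 6 Gy on day 7 were those of C4b, C1s1, C2 and C1ra, which act after C1q in the classical pathway. With 6 Gy, 7 of the 10 fell on day 7, with INDO 3, and with 6 Gy + INDO 6 fell and 2 rose. Of all genes 10.3%, 11.7% and 21.2% were lower in these comparisons, and 24.8% were higher with 6 Gy + INDO. C1s1, the protease that cuts C4 and C2, lies on chromosome 6 at 124530345 to 124542359 beside its partner C1ra. On day 1 C1s1 had 7.49, 5.37, 7.05, 5.48 and 4.36 CPM with 6 Gy, 10.2, 3.70, 3.14, 10.1 and 5.13 CPM with INDO and 4.42, 9.35, 3.83, 3.98 and 8.81 CPM with 6 Gy + INDO, against 32.8, 12.7, 31.5 and 31.7 CPM in control. The 15 treated tumors were all below the 4 controls, of which 1 stood apart at 12.7 CPM. Of genes with at least 10 counts on day 1, 7.08%, 8.76% and 10.4% were below all controls with 6 Gy, INDO and 6 Gy + INDO. On the log2 scale the changes were -2.18 (SE 0.38, adjusted p = 0.000785), -2.03 (SE 0.38, adjusted p = 0.00152) and -2.15 (SE 0.38, adjusted p = 0.000528). On day 7 C1s1 had 21.9, 13.3, 12.0, 13.3 and 12.9 CPM with 6 Gy, 31.9, 40.2, 20.4, 41.3 and 42.8 CPM with INDO and 47.6, 4.82, 40.9, 13.0 and 38.3 CPM with 6 Gy + INDO, against 121, 69.8, 85.0, 75.1 and 63.6 CPM in control. Again no treated tumor reached the lowest control, and 2 of the 6 Gy + INDO tumors were well below the other 3. C1s1 fell 5.69-fold with 6 Gy (log2 fold change -2.51, SE 0.43, adjusted p = 0.000615) and 2.70-fold with 6 Gy + INDO (-1.43, SE 0.42, adjusted p = 0.0100). With INDO its change was -1.17 (SE 0.41, adjusted p = 0.0456), a call that was lost when any of the 10 tumors was left out. The 6 Gy + INDO call was lost under housekeeping scaling (-0.95, adjusted p = 0.0603).

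C4b, the mouse C4 whose cleavage opens the way to C3, lies on chromosome 17 at 34728380 to 34743882. It had 24.2, 17.6, 30.8, 21.1 and 12.1 CPM with 6 Gy on day 7, 71.5, 51.7, 39.9, 73.3 and 65.9 CPM with INDO and 50.8, 10.7, 57.4, 43.6 and 37.9 CPM with 6 Gy + INDO, against 145, 147, 151, 95.8 and 96.4 CPM in control. All treated tumors were below all controls, and the 6 Gy tumors were low together, with 1 of the 6 Gy + INDO tumors below them. C4b fell 6.01-fold with 6 Gy (log2 fold change -2.59, SE 0.34, adjusted p = 8.21e-05), 2.01-fold with INDO (-1.01, SE 0.32, adjusted p = 0.0306) and 2.98-fold with 6 Gy + INDO (-1.58, SE 0.33, adjusted p = 0.00118). The INDO call on day 7 was lost under housekeeping scaling (-0.78, adjusted p = 0.0937) and without control replicate 2 or 3 or INDO replicate 2 or 3. On day 1 C4b averaged 8.71 ± 3.31 CPM with 6 Gy, 12.5 ± 5.88 CPM with INDO and 8.88 ± 4.21 CPM with 6 Gy + INDO (SD, n = 5 each), against 44.6 ± 17.3 CPM in control (SD, n = 4), and each treated tumor was below each control. The log2 fold changes on day 1 were -2.35, -1.80 and -2.32 (adjusted p = 0.000479, 0.00407 and 0.000323). C4b and its neighboring paralog C4a, like C1s1 and C1s2 or C1ra and C1rb, share sequence, and expected counts divide such reads between the copies.

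**Figure D3:**
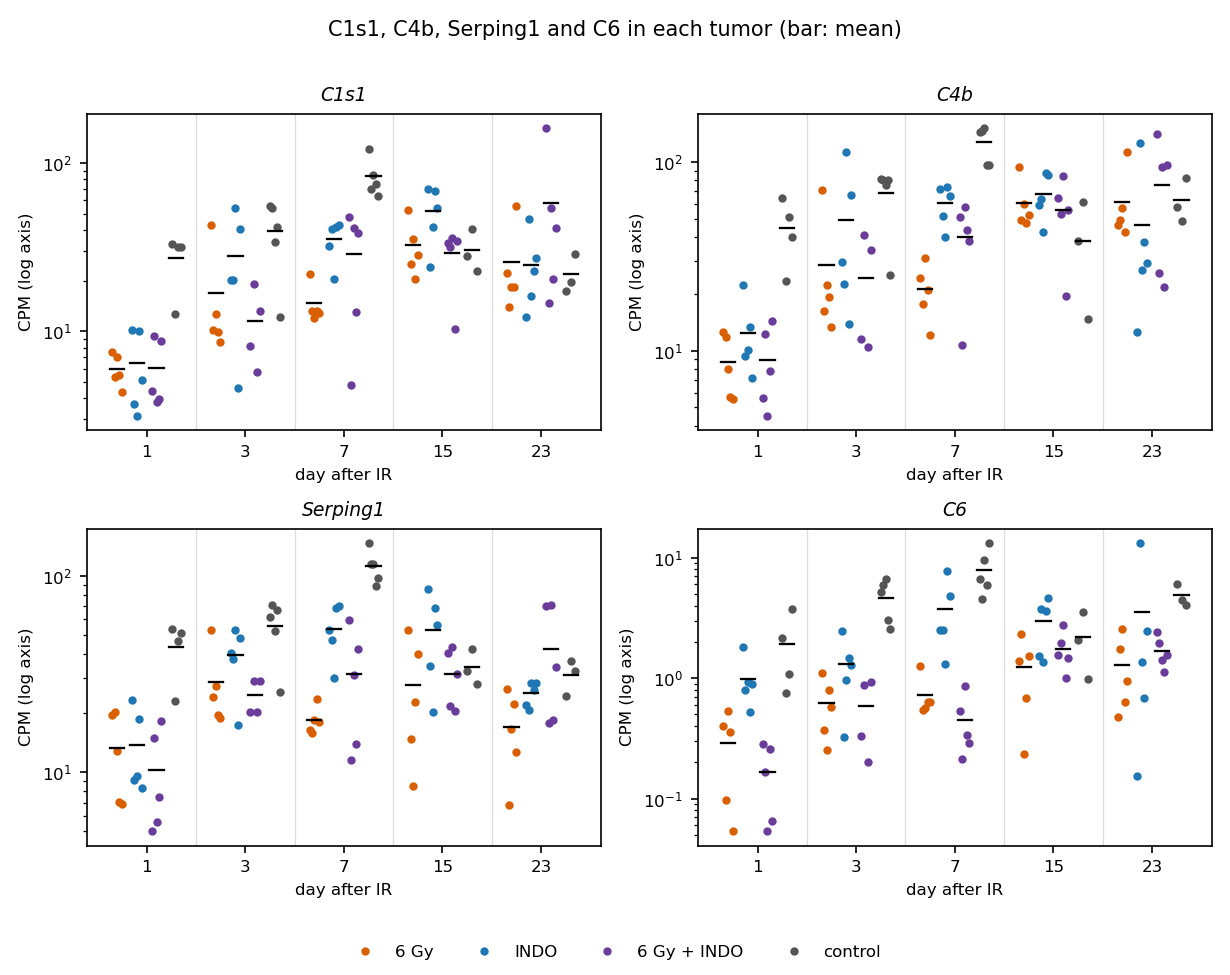
CPM (log axis) of C1s1, C4b, Serping1 and C6 in each tumor (points) by treatment (colors) and day after IR, with the mean of each group as a bar. On day 7 no tumor treated with 6 Gy, with or without INDO, reaches the lowest control, for C4b 57.4 CPM at most against 95.8 CPM at least.

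C1ra moved with C1s1, with r = 0.97 and rho = 0.95 over the 94 tumors (permutation p = 1e-05, adjusted p 1.2e-05), r = 0.96 without the 2 farthest tumors and 0.93 to 0.99 within single days. C1ra averaged 16.2, 40.8 and 28.9 CPM with 6 Gy, INDO and 6 Gy + INDO on day 7, against 67.9 CPM in control, and was called lower with 6 Gy and 6 Gy + INDO. C2, which C1s cuts as well, averaged 4.82 ± 0.73 CPM with 6 Gy, 13.5 ± 4.16 CPM with INDO and 8.09 ± 5.80 CPM with 6 Gy + INDO, against 23.3 ± 9.24 CPM in control (SD, n = 5 each), with log2 fold changes of -2.28 (adjusted p = 0.000881), -0.73 (adjusted p = 0.173) and -1.44 (adjusted p = 0.00777). Both were also called lower with all 3 treatments on day 1, although not C2 in the fit of all 94 tumors (adjusted p = 0.144, 0.127 and 0.136).

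Fibroblast and matrix markers moved with these components, although not on every day. On day 7, 13 of 14 were lower after 6 Gy, 11 after INDO and 13 after 6 Gy + INDO, at median log2 fold changes of -1.88, -1.39 and -2.43. Their summed level was 1810 to 3504 CPM in 6 Gy tumors, 3021 to 6117 CPM in INDO tumors and 1324 to 3833 CPM in 6 Gy + INDO tumors, against 8604 to 16122 CPM in control tumors. On day 1 it was 2764 to 6515, 4201 to 8385 and 5824 to 8125 CPM with 6 Gy, INDO and 6 Gy + INDO, against 6798 to 14884 CPM in control. On day 3, 9, 13 and 10 of the 14 were lower, while C1s1 and C4b were called with no treatment. The part of these markers in the result was not tested.

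C3, where all pathways meet, fell on day 7 with 6 Gy, and factor B (Cfb) of the alternative pathway with 6 Gy and 6 Gy + INDO. C3 had 270, 312, 300, 273 and 363 CPM with 6 Gy on day 7, 481, 419, 728, 652 and 596 CPM with INDO and 659, 357, 396, 599 and 330 CPM with 6 Gy + INDO, against 584, 477, 783, 382 and 571 CPM in control. The 6 Gy tumors were below all controls, whereas tumors given INDO, alone or with 6 Gy, lay across the control range or, for 2 tumors given both, just under it. C3 fell by 0.88 on the log2 scale with 6 Gy (SE 0.21, adjusted p = 0.00648), and its changes were 0.10 with INDO (adjusted p = 0.743) and -0.18 with 6 Gy + INDO (adjusted p = 0.490). In a fit of all 94 tumors the 6 Gy change was the same size (-0.88, adjusted p = 0.0679). Cfb fell with 6 Gy (59.7 ± 17.2 CPM, log2 fold change -1.57, adjusted p = 0.000334) and with 6 Gy + INDO (73.0 ± 23.9 CPM, -1.19, adjusted p = 0.00119), against 177 ± 34.1 CPM in control (SD, n = 5 each), while INDO tumors had 136 ± 40.8 CPM (-0.32, adjusted p = 0.340). C3 and Cfb were weakly related over the 94 tumors (r = 0.38, rho = 0.35, permutation p = 0.00141 and 0.00265), with r = 0.34 without the 2 farthest tumors and 0.22 to 0.52 within single days. C2 and Cfb are neighbors on chromosome 17, at 34862604 to 34898265 and 34856374 to 34862518.

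Properdin (Cfp), which stabilizes the alternative pathway convertase and is made by myeloid cells, was lower with INDO on days 1, 3 and 7. On day 1 Cfp averaged 21.7 ± 7.06 CPM with 6 Gy, 18.3 ± 2.91 CPM with INDO and 23.9 ± 2.22 CPM with 6 Gy + INDO (SD, n = 5 each), against 35.2 ± 8.11 CPM in control (SD, n = 4), with log2 fold changes of -0.68 (adjusted p = 0.0218), -0.90 (adjusted p = 0.00430) and -0.55 (adjusted p = 0.0458). The last of these was lost in the fit of all 94 tumors (-0.56, adjusted p = 0.0697), in 3 other fits and in 8 of the 9 that left out 1 tumor, and the first without control replicate 1 (adjusted p = 0.0989). On day 3 Cfp had 30.0, 25.2, 28.3, 27.7 and 27.8 CPM with 6 Gy, 24, 14.1, 17.1, 16.4 and 15.9 CPM with INDO and 15.2, 24.5, 25.9 and 20.5 CPM with 6 Gy + INDO, against 32.6, 52.7, 49.4, 33.7 and 35.7 CPM in control. All treated tumors were below all controls, and those given INDO, alone or with 6 Gy, were mostly below those given 6 Gy alone. Of genes with at least 10 counts on day 3, 3.61%, 2.63% and 6.24% were below all controls with 6 Gy, INDO and 6 Gy + INDO. Log2 fold changes were -0.56 (SE 0.17, adjusted p = 0.0524), -1.21 (SE 0.17, adjusted p = 0.000851) and -0.89 (SE 0.18, adjusted p = 0.00407), the last of which was -0.63 (adjusted p = 0.389) without the 3 receptor-rich tumors, which left 1 of the 4.
On day 7 Cfp had 41.8, 28.7, 29.2, 29.7 and 24.2 CPM with 6 Gy, 22.2, 18.4, 24.8, 34.8 and 30.3 CPM with INDO and 19.9, 25.7, 16.6, 28.2 and 14 CPM with 6 Gy + INDO, against 67.0, 49.1, 62.5, 35.1 and 76.6 CPM in control. A single 6 Gy tumor reached into the control range. Its log2 fold changes on day 7 were -0.92 (SE 0.22, adjusted p = 0.00694), -1.09 (SE 0.22, adjusted p = 0.00299) and -1.40 (SE 0.22, adjusted p = 0.000169).

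Of the lectin pathway genes, Masp1 and Masp2 were called higher with 6 Gy + INDO on day 7, and Fcna lower with INDO on day 3. Of all genes 24.8% were higher in the first comparison and 3.95% lower in the second. The 2 higher calls among 10 soluble components were therefore no larger a share than that of all genes. Masp1 averaged 40.0 ± 8.19 CPM with 6 Gy, 22.6 ± 5.23 CPM with INDO and 45.7 ± 16.0 CPM with 6 Gy + INDO on day 7, against 31.4 ± 4.22 CPM in control (SD, n = 5 each), and was called higher with 6 Gy + INDO (log2 fold change 0.62, adjusted p = 0.0211). The call was lost in a fit of all 94 tumors (0.54, adjusted p = 0.117). Masp2, at 0.59 to 1.13 CPM in the group means, was higher with 6 Gy + INDO on day 7 (1.04, adjusted p = 0.0249), but not without the receptor-rich tumors (0.79, adjusted p = 0.214). Fcna, mouse ficolin A and a recognition molecule made by macrophages, was lower with INDO on day 3, with 4.29, 2.60, 1.77, 4.11 and 2.45 CPM against 8.56, 8.77, 10.9, 9.48 and 7.50 CPM in control (log2 fold change -1.56, SE 0.34, adjusted p = 0.0122), and the groups did not overlap. With 6 Gy and 6 Gy + INDO on that day, Fcna had log2 fold changes of -0.37 (adjusted p = 0.529) and -0.74 (adjusted p = 0.146).

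Of the terminal components, which build the membrane attack complex, C6 had the largest change on day 7. Among all members it came after Cfi, at 0.213 to 1.26 CPM in irradiated tumors. C6 lies on chromosome 15 at 4727175 to 4814967. On day 7 C6 had 1.26, 0.545, 0.561, 0.631 and 0.639 CPM with 6 Gy, 2.51, 2.51, 1.31, 7.69 and 4.81 CPM with INDO and 0.532, 0.213, 0.860, 0.337 and 0.292 CPM with 6 Gy + INDO, against 6.61, 4.49, 9.60, 5.96 and 13.1 CPM in control. Irradiated tumors were far below the lowest control, and INDO tumors overlapped it. C6 fell 10.9-fold with 6 Gy (log2 fold change -3.45, SE 0.46, adjusted p = 9.2e-05) and 17.0-fold with 6 Gy + INDO (-4.09, SE 0.49, adjusted p = 1.95e-05), and was 2.01-fold lower with INDO without passing the test (-1.01, SE 0.42, adjusted p = 0.0829).
On day 1 C6 had 0.401, 0.0971, 0.532, 0.361 and 0.0540 CPM with 6 Gy, 1.82, 0.801, 0.920, 0.522 and 0.895 CPM with INDO and 0.285, 0.167, 0.0537, 0.259 and 0.0653 CPM with 6 Gy + INDO, against 2.13, 0.759, 1.09 and 3.73 CPM in control. The irradiated tumors were again below all controls, while 2 of the 4 controls lay within the INDO range. The log2 fold changes on day 1 were -2.71 (adjusted p = 0.00502), -0.93 (adjusted p = 0.288) and -3.49 (adjusted p = 0.000616), and on day 3 they were -2.90 (adjusted p = 0.00328), -1.80 (adjusted p = 0.0418) and -2.97 (adjusted p = 0.00325). The day 3 change with 6 Gy + INDO was -4.49 (adjusted p = 0.154) in the 1 tumor left without the receptor-rich ones.

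C7 was measured on few reads, and was tested on day 7 only. Its counts on day 7 summed to 16 over the 5 tumors with 6 Gy, 19 with INDO and 15 with 6 Gy + INDO, against 125 in the 5 controls. Fitted log2 fold changes were -2.89 (adjusted p = 0.00342), -1.80 (adjusted p = 0.0391) and -1.89 (adjusted p = 0.0213), and the INDO call was lost in 4 of the alternatives. Hc, the mouse gene of C5, was not called on any day. On day 7 Hc had 0.353 to 0.528 CPM with 6 Gy, 0.155 to 0.622 CPM with INDO and 0.365 to 1.22 CPM with 6 Gy + INDO, against 0.152 to 0.719 CPM in control. Over the 5 days Hc was called lower with 6 Gy + INDO (log2 fold change -0.50, adjusted p = 0.0383), but not with RLE factors (-0.45, adjusted p = 0.0624), under housekeeping scaling (-0.22, adjusted p = 0.433), without a filter on low counts (adjusted p = 0.0563) or without the receptor-rich tumors (adjusted p = 0.182).

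Of the 5 receptors tested on day 7, 3 fell with 6 Gy, 1 with 6 Gy + INDO and none with INDO. Of all genes 10.3%, 21.2% and 11.7% were lower in these comparisons. With 6 Gy + INDO and with INDO the share of receptors was therefore no larger than that of all genes. C3ar1, the receptor of C3a, had 33.4, 44.2, 49.1, 39.4 and 34.2 CPM with 6 Gy on day 1, 47.7, 33.6, 36.9, 53.5 and 48.1 CPM with INDO and 47.4, 58.3, 46.6, 44.9 and 31.4 CPM with 6 Gy + INDO, against 59.9, 60.7, 70.7 and 72.8 CPM in control. All treated tumors were below all controls. The log2 fold changes were -0.71 (SE 0.17, adjusted p = 0.00673), -0.55 (SE 0.17, adjusted p = 0.0324) and -0.53 (SE 0.17, adjusted p = 0.0276), of which the last 2 were lost under housekeeping scaling (-0.47, adjusted p = 0.0827, and -0.44, adjusted p = 0.0761). On day 7 C3ar1 had 51.5, 32.2, 46.9, 42.2 and 34.9 CPM with 6 Gy, 48.7, 45.7, 87.6, 98.8 and 62.8 CPM with INDO and 50.3, 49.8, 59.0, 58.6 and 30.1 CPM with 6 Gy + INDO, against 51.5, 79.4, 82.8, 51.8 and 91.3 CPM in control. Only the 6 Gy change was called (-0.78, SE 0.22, adjusted p = 0.0225), and it was -0.52 under housekeeping scaling (adjusted p = 0.0596).

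C5ar1, the receptor of C5a on neutrophils and macrophages, had 7.30, 10.5, 14.5, 10.4 and 9.48 CPM with 6 Gy on day 1, 11.8, 9.04, 9.78, 13.4 and 13.3 CPM with INDO and 19.3, 15.5, 16.9, 13.2 and 13.3 CPM with 6 Gy + INDO, against 20.5, 20.2, 19.8 and 19.2 CPM in control. Tumors given 1 treatment were far below the tight control group, and those given both were nearer to it. C5ar1 fell by 0.92 on the log2 scale with 6 Gy (SE 0.17, adjusted p = 0.00106) and by 0.76 with INDO (SE 0.17, adjusted p = 0.00511), and its change with 6 Gy + INDO was -0.34 (adjusted p = 0.150). On day 7 C5ar1 had 14.5, 12.3, 18.2, 17.6 and 11.6 CPM with 6 Gy, 18.5, 22.2, 35.5, 37.7 and 23.3 CPM with INDO and 16.6, 16.4, 14.6, 21.3 and 11.7 CPM with 6 Gy + INDO, against 26.2, 25.6, 34.7, 18.7 and 36.6 CPM in control. The 6 Gy tumors were below the controls, and the INDO tumors spread across their range. The log2 fold changes on day 7 were -0.93 (SE 0.21, adjusted p = 0.00558), 0.02 (adjusted p = 0.959) and -0.73 (SE 0.21, adjusted p = 0.0105), the last being -0.25 under housekeeping scaling (adjusted p = 0.290).

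Itgam, the CD11b chain of complement receptor 3, fell with INDO on day 1 and with 6 Gy on day 7. On day 1 Itgam had 46.6, 55.8, 86.9, 78.9 and 64.8 CPM with 6 Gy, 48.1, 47.0, 50.6, 50.7 and 52.4 CPM with INDO and 90.0, 70.8, 83.5, 58.6 and 76.1 CPM with 6 Gy + INDO, against 81.6, 84.1, 89.7 and 77.0 CPM in control. The INDO tumors were close together and below all controls (log2 fold change -0.70, SE 0.15, adjusted p = 0.00333). On day 7 Itgam averaged 83.9 ± 18.2 CPM with 6 Gy, 123 ± 29.4 CPM with INDO and 98.0 ± 24.3 CPM with 6 Gy + INDO, against 137 ± 36.7 CPM in control (SD, n = 5 each), and the 6 Gy change was -0.71 (SE 0.22, adjusted p = 0.0297), or -0.46 under housekeeping scaling (adjusted p = 0.119). Itgb2, its partner chain, was not called on any day, nor were C5ar2 and Vsig4. Itgam and Itgb2 had r = 0.50 and rho = 0.47 over the 94 tumors (permutation p = 1e-05, adjusted p 1.2e-05), and r = 0.46 without the 2 farthest tumors. Within single days r was between 0.02 and 0.82, so that the relation did not hold on every day.

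Regulators moved in both directions. Serping1, the gene of C1 inhibitor, which blocks C1r, C1s and the MASP proteases, fell on day 7, as C1ra and C1s1 did with 6 Gy and 6 Gy + INDO. It lies on chromosome 2 at 84765387 to 84775444. On day 7 Serping1 had 16.4, 15.8, 18.4, 23.5 and 18.0 CPM with 6 Gy, 53.0, 47.2, 30.0, 68.3 and 69.7 CPM with INDO and 59.7, 11.5, 31.2, 13.9 and 42.1 CPM with 6 Gy + INDO, against 146, 115, 114, 88.6 and 97.7 CPM in control. All treated tumors were below all controls, and the 6 Gy tumors were the closest together, while the 6 Gy + INDO tumors spread to both sides of them. Serping1 fell 6.11-fold with 6 Gy (log2 fold change -2.61, SE 0.36, adjusted p = 0.000112) and 3.34-fold with 6 Gy + INDO (-1.74, SE 0.35, adjusted p = 0.000914). With INDO it fell 2.01-fold (-1.01, SE 0.34, adjusted p = 0.0387), or by 0.78 under housekeeping scaling (adjusted p = 0.105). On day 1 Serping1 had 19.6, 20.1, 12.9, 7.02 and 6.87 CPM with 6 Gy, 23.2, 9.17, 9.59, 18.6 and 8.26 CPM with INDO and 5.01, 14.9, 5.59, 7.50 and 18.3 CPM with 6 Gy + INDO, against 53.5, 22.9, 46.5 and 51.0 CPM in control. All treated tumors were below all controls except 1 INDO tumor, at 23.2 CPM, which was just above the lowest control. On the log2 scale the changes were -1.70 (SE 0.44, adjusted p = 0.0134), -1.62 (SE 0.44, adjusted p = 0.0184) and -2.08 (SE 0.44, adjusted p = 0.00235).

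Factor I (Cfi), the protease that inactivates C3b and C4b, had the largest fitted changes, on few reads. On day 7 its counts summed to 15 over the 5 tumors with 6 Gy (1 to 7 per tumor), 50 with INDO (2 to 31) and 10 with 6 Gy + INDO (0 to 6), against 485 in the 5 controls (47 to 204). No treated tumor reached the lowest control, although libraries with INDO were smaller. Cfi had 0.0504, 0.0867, 0.0303, 0.0147 and 0.0139 CPM with 6 Gy, 0.0620, 0.104, 0.0415, 0.496 and 0.289 CPM with INDO and 0.0156, 0.0608, 0.272, 0 and 0.0292 CPM with 6 Gy + INDO, against 1.03, 2.21, 1.19, 0.574 and 0.971 CPM in control. Log2 fold changes were -4.83 (SE 0.76, adjusted p = 0.000324), -2.47 (SE 0.67, adjusted p = 0.0144) and -4.19 (SE 0.80, adjusted p = 0.000640).

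The membrane regulators parted from one another. Cd55, which speeds the decay of convertases, averaged 2.33 ± 1.02 CPM with 6 Gy, 3.68 ± 1.82 CPM with INDO and 2.11 ± 1.21 CPM with 6 Gy + INDO on day 7, against 9.96 ± 1.83 CPM in control (SD, n = 5 each), with log2 fold changes of -2.10 (adjusted p = 0.00539), -1.37 (adjusted p = 0.0413) and -2.15 (adjusted p = 0.00215). The INDO change of Cd55 was -1.11 under housekeeping scaling (adjusted p = 0.0903), and its call was lost in 8 of the 10 fits that left out 1 tumor. In the fit of all 94 tumors the 6 Gy change of Cd55 did not pass the test (-2.10, adjusted p = 0.05998). Cd59a, which blocks the membrane attack complex, fell with 6 Gy (-1.68, adjusted p = 0.00542) and 6 Gy + INDO (-1.77, adjusted p = 0.00197). Cd46, a cofactor of factor I whose expression in mice is largely restricted to the testis, was higher. It had 10.2, 7.89, 7.08 and 8.51 CPM with 6 Gy + INDO on day 3 against 3.53, 4.73, 2.55, 6.39 and 2.75 CPM in control, groups that did not overlap (log2 fold change 1.12, SE 0.23, adjusted p = 0.00395). In the 1 tumor left without the receptor-rich ones the change of Cd46 was 0.85. Of genes with at least 10 counts on day 3, 9.8% were above all controls with 6 Gy + INDO. On day 7 Cd46 was higher with 6 Gy (0.60, adjusted p = 0.0412) and 6 Gy + INDO (0.73, adjusted p = 0.00620), the first being 0.63 with a replicate block (adjusted p = 0.0546) and lost in 8 of the 10 fits that left out 1 tumor, and the second 0.54 without the receptor-rich tumors (adjusted p = 0.105). Cr1l, the gene of Crry, which does the work of CD46 and CD55 on most mouse cells, moved little.

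On day 7 Cr1l had 57.6, 46.8, 46.2, 42.1 and 48.9 CPM with 6 Gy, 38.2, 31.8, 43.9, 39.0 and 40.3 CPM with INDO and 38.5, 43.5, 43.1, 39.2 and 33.6 CPM with 6 Gy + INDO, against 49.4, 48.1, 48.2, 57.2 and 51.7 CPM in control. The tumors given INDO were below all controls. Changes on the log2 scale were -0.08 (adjusted p = 0.610), -0.34 (SE 0.09, adjusted p = 0.0134) and -0.28 (SE 0.09, adjusted p = 0.0170). Under housekeeping scaling, which moved the median of all genes up by 0.25 with INDO and 0.49 with 6 Gy + INDO, Cr1l was at -0.09 (adjusted p = 0.510) and 0.21 (adjusted p = 0.0597), a move of like size to that of all genes.

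Clusterin (Clu), a secreted chaperone that also inhibits the terminal complex, was higher in treated tumors on day 1 and rose over time in controls. On day 1 Clu had 193, 197, 508, 262 and 140 CPM with 6 Gy, 187, 313, 213, 161 and 158 CPM with INDO and 306, 179, 257, 218 and 447 CPM with 6 Gy + INDO, against 155, 139, 106 and 74.7 CPM in control. Only 1 treated tumor, with 6 Gy, was within the control range. Clu rose 2.21-fold with 6 Gy (log2 fold change 1.14, SE 0.34, adjusted p = 0.0296) and 2.39-fold with 6 Gy + INDO (1.26, SE 0.34, adjusted p = 0.0125), and its change with INDO was 0.83 (SE 0.34, adjusted p = 0.105). The 6 Gy call was lost in a fit of all 94 tumors (1.13, adjusted p = 0.0544).

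**Figure D4:**
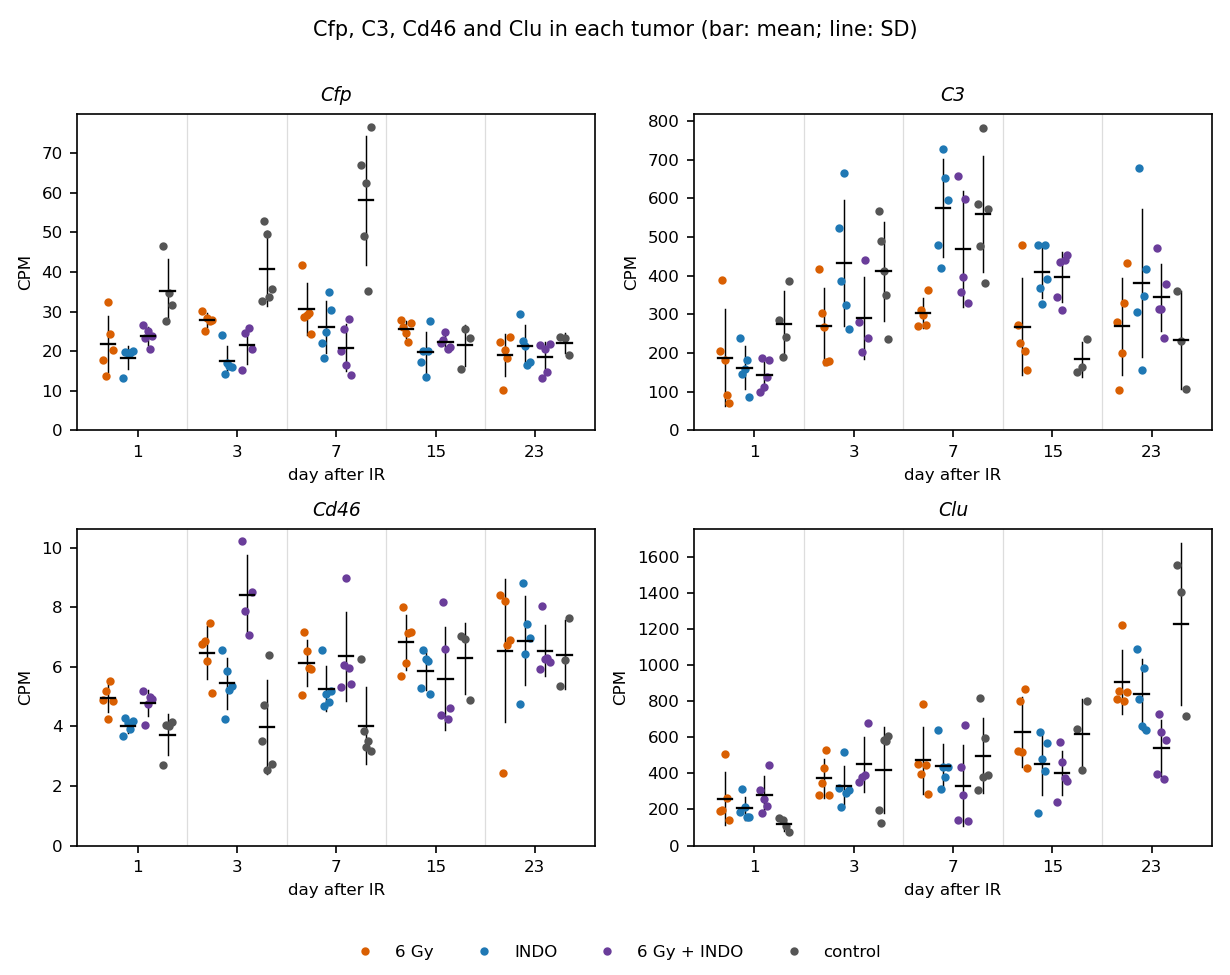
CPM of Cfp, C3, Cd46 and Clu in each tumor (points) by treatment (colors) and day after IR, with the mean of each group as a bar. Cfp on day 3 is at most 30.0 CPM in the treated tumors against at least 32.6 CPM in control, whereas Clu on day 1 is higher in treated tumors, and Clu in control averages 1227 CPM on day 23 and 119 CPM on day 1.

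Complement genes changed with time in the untreated tumors as well. Of 29 members, 24 differed between the 5 days in control tumors (30.2% of all genes were called), the exceptions being C1qc, C7, Cd59a, Masp2 and Vsig4. Control means of C1s1 were 27.2, 39.4, 82.9, 30.5 and 21.8 CPM on days 1, 3, 7, 15 and 23. C4b had 44.6, 68.4, 127, 38.2 and 62.8 CPM, Serping1 43.5, 55.3, 112, 34.2 and 31.2 CPM, and Cfb 63.3, 78.5, 177, 58.2 and 75.1 CPM on those days. C1ra, C2, C3, Cfp and C6 also had their highest control mean on day 7. Clu had 119, 418, 498, 621 and 1227 CPM in the same order, and Fcna 5.12, 9.04, 7.35, 1.55 and 1.36 CPM. With housekeeping scaling 15 members differed between days in control tumors, and 13 to 19 when 1 replicate number was left out. A replicate block gave 3, but its control level was that of 1 replicate number per day. That count therefore cannot test the control means of the days.

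As a mean over the 5 days, each weighted alike, 16 of 29 members were lower and 1 was higher with 6 Gy (19.8% of all genes called, 10.6% lower and 9.19% higher). For INDO 12 were lower and 1 was higher (34.2%, 17.4% lower and 16.8% higher), and for 6 Gy + INDO 16 were lower and 2 higher (52.8%, 23.2% lower and 29.6% higher). The median log2 fold change of the members was -0.50, -0.33 and -0.36, against 0.03, 0.07 and 0.19 for all genes. Apart from Cfi, C7 and Vsig4, which rest on few reads, C6 had the largest change. Its means were 0.83, 2.52 and 0.93 CPM in the 6 Gy, INDO and 6 Gy + INDO groups against 4.32 CPM in control. The log2 fold changes of C6 were -2.37, -0.77 and -2.50 (adjusted p = 9.64e-10, 0.0235 and 2.9e-10). In irradiated tumors C6 was itself low, down to 0.0537 CPM. Cfp was the soluble component with the smallest p for INDO (-0.69, SE 0.10, adjusted p = 7.38e-08). Without day 7 the counts of called members were 8, 5 and 8 in place of 17, 13 and 18. Housekeeping scaling, which moved all genes up by 0.08, 0.13 and 0.28, gave 2 higher and 5 lower with INDO, and 3 higher and 6 lower with 6 Gy + INDO. Leaving out replicate 3 of every group gave 6 with INDO.

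**Figure D5:**
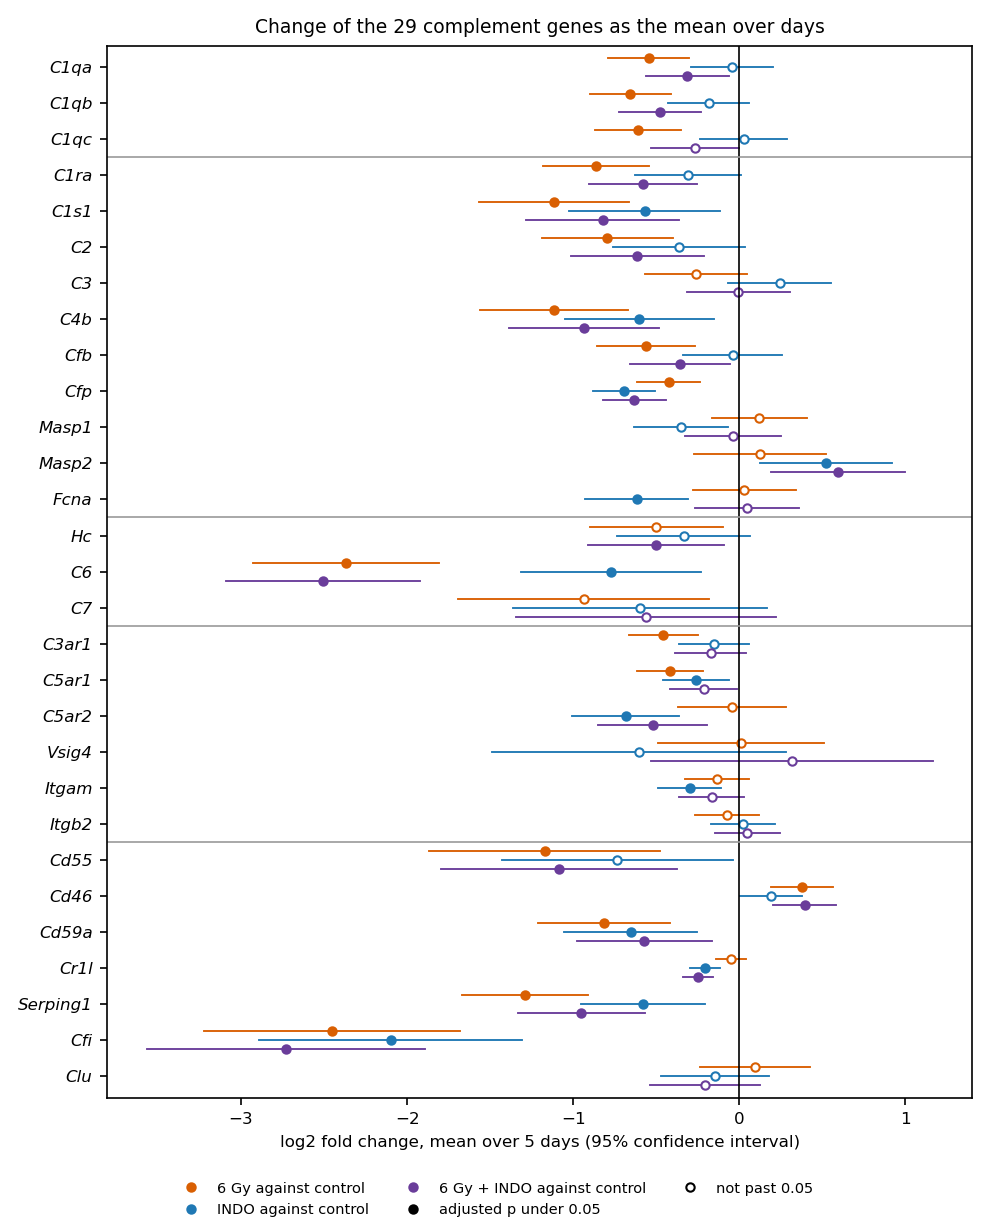
Log2 fold change over the 5 days (points) with its 95% confidence interval (lines) for each of the 29 members against control, with 6 Gy, INDO and 6 Gy + INDO in separate colors, filled where the adjusted p was below 0.05. Most points are below 0, C6 and Cfi are farthest, and Cd46 and Masp2 are above 0.

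The C1q chains over all days fell by 0.54 (C1qa), 0.66 (C1qb) and 0.61 (C1qc) on the log2 scale with 6 Gy (adjusted p = 0.000659, 3.46e-05 and 0.000316). With INDO they were not called, and with 6 Gy + INDO C1qa fell by 0.31 (adjusted p = 0.0324) and C1qb by 0.48 (adjusted p = 0.00111). These 2 calls were lost under housekeeping scaling (-0.04 and -0.20, adjusted p = 0.876 and 0.163).

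The comparison of 6 Gy + INDO with each single treatment asks what the second agent added. Against 6 Gy, C1qc (log2 fold change 0.34, adjusted p = 0.0201), C3ar1 (0.28, adjusted p = 0.0164) and Masp2 (0.47, adjusted p = 0.0362) were higher, and C5ar2 (-0.48, adjusted p = 0.00988) and Cr1l (-0.20, adjusted p = 0.000112) lower, 5 of 29 members where 45.7% of all genes were called (25.9% higher and 19.8% lower). With housekeeping scaling, which moved all genes up by 0.20, 12 members were higher and none lower, and Cr1l was at 0.01. With RLE factors 5 were higher and 2 lower. Against INDO, Fcna was higher (0.67, SE 0.15, adjusted p = 0.00379) and C6 lower (-1.73, SE 0.28, adjusted p = 0.000166), 2 of 29 where 10.8% were called. Housekeeping scaling, with a shift of 0.14, gave 5 higher and 1 lower. With TMM the share of members called was below that of all genes in both comparisons. Shares of all genes under the other scalings are not given here.

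For 5 members the change with both treatments differed from the sum of the single changes on the log2 scale, and in each the interaction was positive, where 7.58% of all genes were called. Serping1 had an interaction of 0.92 (SE 0.26, adjusted p = 0.0197), with changes of -1.29, -0.58 and -0.95 for 6 Gy, INDO and 6 Gy + INDO. Cfp had 0.49 (SE 0.13, adjusted p = 0.0125), from changes of -0.43, -0.69 and -0.63. C5ar1 (0.46, adjusted p = 0.0264), Cd59a (0.90, adjusted p = 0.0339) and Cfi (1.82, adjusted p = 0.0484) were the others. Without the receptor-rich tumors the interaction was 0.48 for Cd59a (adjusted p = 0.450) and 0.35 for Cfi (adjusted p = 0.935). No member was called without day 1, without day 7 or without replicate 2, and 12 were called without day 15.

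Further complement genes were also called lower with 6 Gy. Of 38 further complement genes listed, 25 were tested, and 12 fell and none rose with 6 Gy over the 5 days, 8 fell and 3 rose with INDO, and 9 fell and 4 rose with 6 Gy + INDO. Of all genes 19.8%, 34.2% and 52.8% were called (10.6%, 17.4% and 23.2% lower), so that the count with 6 Gy + INDO was no larger than the share of all genes. Cr2, among these further genes and also a B cell marker, reached 100 CPM against a median of 0.491 CPM. The INDO group holds the tumor rich in B cell markers (day 3, replicate 3), and the INDO count without it is not given here. Pentraxin 3 (Ptx3), a soluble pattern receptor that binds C1q, had means of 1.02, 0.935 and 0.816 CPM with 6 Gy, INDO and 6 Gy + INDO, against 11.3 CPM in control, with log2 fold changes of -3.05, -3.02 and -3.10 (adjusted p = 5.49e-09, 1.49e-08 and 3.3e-09). Factor D (Cfd), the protease that activates factor B and also a product of fat cells, fell by 2.59, 1.60 and 2.77 on the log2 scale (adjusted p = 6.78e-06, 0.00215 and 8.55e-07). Of 7 other adipocyte markers 7, 6 and 7 were lower as well, at median log2 fold changes of -2.469, -1.868 and -1.956, with sums of 10.9 to 27.8 CPM in 6 Gy tumors, 14.5 to 31.2 CPM in INDO tumors and 12.9 to 29.4 CPM in 6 Gy + INDO tumors, against 15.5 to 79.8 CPM in control tumors. Adipoq, the gene of adiponectin, was at 0 in 4, 4 and 4 of these treated tumors and in 1 control. C1rb (-1.08, -0.55 and -0.87), the scavenger collectin Colec12 (-0.57, -0.50 and -0.56), thrombomodulin (Thbd, -0.59, -1.10 and -1.08) and the endothelial receptor Cd93 (-0.50, -0.72 and -0.61) were lower with all 3 treatments. Endothelial markers fell beside them, 9, 10 and 10 of 10 at median log2 fold changes of -0.75, -0.71 and -0.90, with sums of 152 to 267 CPM, 127 to 318 CPM and 123 to 267 CPM with 6 Gy, INDO and 6 Gy + INDO, against 170 to 596 CPM in control. None of the 10 was at 0 in any tumor. The part of the adipocyte and endothelial markers in these results was not tested. C4bp was called higher with INDO and 6 Gy + INDO, at group means of 0.0441 and 0.311 CPM against 0.0406 CPM in control. These levels are a few reads per tumor, and fit and means did not go together. With 6 Gy the fitted log2 fold change of C4bp was 1.36 (adjusted p = 0.159) at a mean of 0.0214 CPM. Its change without the receptor-rich tumors is not given here.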

How the data were processed

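Total RNA of 94 whole tumors was sequenced by the authors in pairs of reads. Their methods name Cutadapt for trimming and Partek Flow, and the submitters' processing notes add STAR, build mm10 and Partek 11.0.24.0328, while the methods give an earlier Partek build. The authors required an RNA integrity number above 6, and they deposited 1 table of expected counts for 49080 genes. The counting tool and annotation are not given in the sources used here. Of the values, 15.5% were not whole, and all were rounded for the fits. Treatment, day and replicate number came from the titles, and all columns were mapped. The labels name a TruSeq stranded kit and the methods another stranded Illumina kit.

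The 4 groups of a day were fitted jointly with edgeR 4.0.16 in R 4.3.3, after filterByExpr and TMM, and tested by quasi-likelihood with trended dispersions. Changes over days, interactions and differences between days used a joint fit of the 94 tumors, in which every treatment and day had its own mean. P-values were adjusted by Benjamini-Hochberg over all genes tested, and calls needed an adjusted p below 0.05. This test replaced the gene-specific analysis of Partek. The SE is the log2 fold change over the square root of F. CPM use TMM library sizes. Relations between partner genes used log2(CPM + 0.5) and 100000 permutations. Gene positions are from GENCODE M21 on mm10 and promoters from RefSeq (GRCm38.p6). The libraries held 21 to 109 M counts, so the rarest members rest on a few reads per tumor, and no interval covers more than the spread between tumors.

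The members, their roles and the marker lists were chosen with earlier results of these data known. All 29 members were named, and 15 were given in full: the 3 C1q chains and, in each of the other 4 roles, the 3 with the most calls over the 15 comparisons with control within days (ties by mean level). Of the 38 further complement genes at most 8 were named, those called with 2 or more treatments and of smallest p, and 1 of these is not reported here. Alternatives were RLE factors, housekeeping scaling, DESeq2 1.42.0, no filter on low counts, a replicate block, all 94 tumors in 1 fit, leaving out the receptor-rich tumors, the study's limits of an unadjusted P below 0.05 and a 2-fold change, and leaving out each tumor, replicate number or day.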

Additional observations from a re-analysis of the deposited data

Results flagged for a closer look

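In groups of 4 or 5 tumors, the highest or lowest tumor of a member given in full was set apart where its gap to the next, as a share of the range of the group, passed Dixon's 95% limit. This held for 18 of 270 groups (6.67%), where chance gives about 1 in 20. Replicate 2 of the control on day 1 was far below the others for C1s1 (gap 0.958 of the range), Cr1l (0.915) and Serping1 (0.832), and replicate 1 of 6 Gy on day 7 was far above them for C1s1 (0.835) and C6 (0.834). The remaining tumors were far off in single genes: C1qa in 6 Gy + INDO on day 3 (0.838), C1s1 in 6 Gy on day 3 (0.765) and in 6 Gy + INDO on day 15 (0.903), C3ar1 in 6 Gy on day 23 (0.796) and in 6 Gy + INDO on day 7 (0.745), C4b in 6 Gy + INDO on day 7 (0.750) and in control on day 3 (0.937), and C7 in 6 Gy + INDO on day 23 (0.728). Cfi had such tumors in 6 Gy on days 1 (0.736) and 3 (0.807) and in 6 Gy + INDO on day 7 (0.736), Cfp in INDO on day 1 (0.940), and Itgam in 6 Gy on day 15 (0.763).

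The change with 6 Gy differed between the 5 days for 6 members (3.82% of all genes called): C1ra (adjusted p = 0.00988), C1s1 (0.0306), C2 (0.0368), C4b (0.0117), C5ar1 (0.0407) and Cfb (0.0317). The change with INDO differed for Cfp (adjusted p = 0.0127; 2.66% of all genes). The change with 6 Gy + INDO differed for 15 members (33.6% of all genes). Among soluble components these were C1ra (adjusted p = 0.00105), C1s1 (0.00211), C3 (0.00815), C4b (0.00597), Cfb (0.0140), Cfp (0.00102), Fcna (0.0227) and Masp1 (0.0303). The others were C6 (adjusted p = 0.00718), Hc (0.0247), C3ar1 (0.0477), C5ar1 (0.0321), Cd46 (0.00604), Serping1 (0.00448) and Clu (0.00371). For C1s1 the changes on days 1 and 7 given in the report were large, and the levels on days 15 and 23 overlapped control.

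The interaction of 6 Gy and INDO over days was called positive for Cfp (0.49), C5ar1 (0.46), Cd59a (0.90), Serping1 (0.92) and Cfi (1.82). In that fit the change with 6 Gy differed between tumors with and without INDO, where 7.58% of all genes were called. No member was called without day 1 or without replicate 2, and Cd59a and Cfi were not called without the receptor-rich tumors.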

How the results depend on the processing

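Counts of called members moved with several settings. Shares of all genes are given here for the main edgeR fits, and at unadjusted limits on days 15 and 23. Member counts under other settings therefore cannot be set against a share of all genes. Over days, 6 Gy gave 17, with 8 without day 7 and 6 at the study's limits. INDO gave 13, with 7 under housekeeping scaling, 8 without day 1, 5 without day 7, 1 at the study's limits and 6 to 13 without 1 replicate number. The count for 6 Gy + INDO was 18, with 9 under housekeeping scaling, 8 without day 7 and 3 at the study's limits. Against 6 Gy it was 5, with 12 under housekeeping scaling, 3 without day 7 or day 23, 0 at the study's limits and 1 to 5 without 1 replicate number. Against INDO it was 2, with 6 under housekeeping scaling, 1 without day 3, 9 without day 23, 1 at the study's limits and 2 to 5 without 1 replicate number. The interaction count was 5, with 3 without the filter, 0 without day 1 or day 7, 1 without day 3, 12 without day 15, 3 without day 23, 1 at the study's limits and 0 to 5 without 1 replicate number.

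Within days, INDO on day 1 gave 11, and 7 at the study's limits. On day 3, 6 Gy gave 2, with 1 under housekeeping scaling or without the filter, 7 with DESeq2, 5 at the study's limits and 1 to 5 without 1 tumor. INDO on day 3 gave 3, and 6 at the study's limits. For 6 Gy + INDO on day 3 the count was 4, with 8 in the fit of all tumors or without the filter, 0 without the receptor-rich tumors, and 7 with DESeq2 or at the study's limits. On day 7, 6 Gy gave 20, and 11 at the study's limits. INDO gave 8, with 4 in the fit of all tumors, 3 under housekeeping scaling and 3 to 9 without 1 tumor, and 6 Gy + INDO 20, with 12 under housekeeping scaling or without the receptor-rich tumors and 13 at the study's limits. Against 0 on day 15, 6 Gy gave 1 at the study's limits, INDO 3 with DESeq2 and 2 at those limits, and 6 Gy + INDO 1 under housekeeping scaling, 2 with DESeq2 and 4 at those limits. Against 0 on day 23, 6 Gy gave 2 in the fit of all tumors and 4 at the study's limits, INDO 1 at those limits, and 6 Gy + INDO 5 in the fit of all tumors, 2 with DESeq2 and 5 at those limits.

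Counts of changes that differed between days were less stable. They were 6 for 6 Gy, with 3 without the filter and 0 to 2 without 1 replicate number, 1 for INDO, with 2 with RLE factors and 0 to 1 without 1 replicate number, and 15 for 6 Gy + INDO, with 5 without the receptor-rich tumors and 4 to 13 without 1 replicate number. Control tumors had 24, with 15 under housekeeping scaling and 13 to 19 without 1 replicate number. The cause of these moves was not tested, apart from fewer tumors where some were left out. Under housekeeping scaling Cr1l changed sign, to 0.0418 over days and 0.21 on day 7 with 6 Gy + INDO and to 0.00617 against 6 Gy, where that scaling moved the median of all genes up by 0.28, 0.49 and 0.20, so that the sign follows from the scaling.

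Whether replicate numbers pair the tumors is not given by the labels. Tumors with the same number had median correlations of -0.06, -0.07, 0.10, 0.07 and 0.17 on days 1, 3, 7, 15 and 23. Those with different numbers had 0.02, -0.01, 0.03, -0.02 and -0.03. The median was thus higher for the same number on days 7, 15 and 23, although single pairs on day 23 ranged from -0.55 to 0.57. With the replicate number as a block, 16, 11, 17, 5, 2 and 4 members were called in the 6 comparisons over days. With that block 4 were called with INDO on day 7, and 2, 0 and 12 changes differed between days with 6 Gy, INDO and 6 Gy + INDO. The block count between control days, 3, compares 1 replicate number per day and does not test the control means.

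C7, Cfi and Vsig4 had 0 reads in some tumors, so that their changes rest on few reads. C6 went down to 0.0537 CPM in irradiated tumors, so that its lowest values rest on few reads too.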

Other observations

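Some differences on the late days left the control range without passing the test. On day 15 C3 averaged 409 ± 67.7 CPM with INDO and 397 ± 64.6 CPM with 6 Gy + INDO (SD, n = 5 each), against 184 ± 45.8 CPM in control (SD, n = 3), with log2 fold changes of 1.15 and 1.09 (adjusted p = 0.219 and 0.0579). Every tumor given INDO, alone or with 6 Gy, was above all 3 controls. This held for 1.8% of genes with at least 10 counts that day with INDO, and 4.96% with 6 Gy + INDO. Among these tumors 1 control and 1 INDO tumor were receptor-rich, and values without them are not given here. At an unadjusted p under 0.05, 7 members were higher and 2 lower of 26 tested with INDO on that day, where 9.68% of all genes were under that limit, and 7 were lower and 1 higher of 27 with 6 Gy on day 23, where it was 14.2%.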
